A study of Saccharomyces cerevisiae with 4 samples.

Results

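Cytochrome c oxidase is the last enzyme of the mitochondrial respiratory chain. It takes electrons from cytochrome c, reduces oxygen to water and pumps protons across the inner membrane. In budding yeast its catalytic core is encoded in mitochondrial DNA and its remaining subunits in the nucleus, and growth on glucose is known to hold nuclear respiratory genes low. The genes described here are 7 nuclear genes, of 7126 features in the count table, that each encode a subunit with no second isoform. They are COX4, COX6, COX7, COX8, COX9, COX12 and COX13. They were picked out of the table by systematic name, and all 7 passed the filter on low counts.

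Polyadenylated RNA was sequenced from 2 wild-type and 2 mutant libraries of Saccharomyces cerevisiae, all from cells growing at mid-log phase in YPD, a rich medium with glucose. The mutant strain carries ulp1-I615N, an allele of ULP1, the gene of a protease that matures the modifier SUMO and removes it from proteins. The strains, MH1006 (wild type) and MH1018 (mutant), are both labelled mating type a, and both labels list the alleles trp1-289, ura3-52 and an allele of leu2, a lys1::kanMX4 disruption, and the deletions ade3-delta and ade2-delta. Each genotype is a single strain, and nothing in the labels says that the replicates were separate cultures. The spread behind each p-value is that between 2 libraries of a group, with each gene's variance drawn toward a trend over all genes tested. That spread could be technical. In RNA from whole cultures, fewer cells with a transcript and less of it per cell cannot be told apart.

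The libraries held 13244131 to 26723470 counted fragments. Among mating type a genes, MFA1, MFA2, STE2 and BAR1 lay between 54.5 CPM (MFA1) and 475 CPM (STE2) in wild type, while the alpha genes MF(ALPHA)1 and STE3 were at 0.381 and 3.84 CPM, where CPM is the depth-normalised count, scaled by TMM. In the mutant these ranges were 58.5 to 418 CPM and 0.755 to 5.81 CPM. LYS1 had 4 or 5 counts in each library, but ADE2 and ADE3, labelled as deleted, had 3116 to 7104 and 1368 to 3250 counts. Differences were tested with edgeR's quasi-likelihood fit over all genes, adjusted by Benjamini-Hochberg and called at an adjusted p under 0.05. Of the mating type genes, STE2 was called lower in the mutant (log2 fold change -0.18, edgeR adjusted p = 0.0303). STE3, which overlaps another feature, was called higher (0.59, edgeR adjusted p = 0.0332), and MFA1, MFA2, BAR1 and MF(ALPHA)1 were not called. The ULP1 transcript was not called (log2 fold change 0.12, SE 0.08, edgeR adjusted p = 0.193), and a point mutation need not alter its level, so it does not check the labels. Genes of chromosome X were higher in the mutant by a median of 1.65-fold, with 338 of 373 tested genes called higher, so the allele and the raised chromosome cannot be told apart. Of the 7 oxidase genes 0 lie on chromosome X, and 0 overlap another annotated feature.

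The nuclear genes of the enzyme are known targets of the HAP complex, whose Hap2, Hap3 and Hap5 subunits bind CCAAT boxes and whose Hap4 subunit activates transcription when glucose is low. The stretches below show where such a box lies before the start codon, since this is a feature of the genes that did not enter their choice. They were read from the RefSeq R64 genome, whose gene coordinates equal those of the count table (build sacCer3) for these genes. Each is printed 5′ to 3′ in the direction of its gene, 55 bases long, and the capitals mark CCAAT or its complement ATTGG. Their positions are chrVIII:209465-209519 on the plus strand for COX6, chrXIII:779260-779314 on the minus strand for COX7, chrXII:910137-910191 on the minus strand for COX8, chrIV:334514-334568 on the minus strand for COX9, chrXII:225348-225402 on the minus strand for COX12 and chrVII:144571-144625 on the plus strand for COX13.
COX6: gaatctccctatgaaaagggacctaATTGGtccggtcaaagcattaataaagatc
COX7: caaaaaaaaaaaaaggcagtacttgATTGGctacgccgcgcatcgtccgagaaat
COX8: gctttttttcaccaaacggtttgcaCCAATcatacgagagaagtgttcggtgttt
COX9: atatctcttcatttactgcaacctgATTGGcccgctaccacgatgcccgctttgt
COX12: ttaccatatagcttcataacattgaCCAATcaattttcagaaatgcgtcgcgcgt
COX13: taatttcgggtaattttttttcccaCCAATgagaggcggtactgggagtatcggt

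In the 300 bases before the start codon, 6 of the 7 genes held CCAAT on either strand, against 41.8% of 5979 nuclear protein-coding genes. A longer form, TNATTGGT, which contains the shorter one, was found in COX6, COX8, COX12 and COX13, against 5.18% of all genes. In these 4 genes it lay at nearly the same distance. The CCAAT box within it began 215 bases before the start codon in COX6, 201 in COX8, 205 in COX12 and 212 in COX13. This box was the one chosen for the stretches above. Other CCAAT boxes began at 286 and 340 bases in COX6, at 287, 335 and 370 in COX12 and at 408 in COX13. RIC1 lies 253 bases before COX12, so these other boxes of COX12 fall inside RIC1. The windows of COX8 and, at 500 bases, of COX9 also reach into a neighbouring gene, 269 and 438 bases away. The boxes of COX7 and COX9, at 162 and 147 bases, were not part of the longer form. COX4 held neither form in 300 or in 500 bases, and its leader is known to contain an intron, which the annotation used here does not show. The stretch shown for COX6 runs into YHR050W-A, a short annotated reading frame on the same strand. The letters AGGGG, the stress response element bound by Msn2 and Msn4, were found in COX7 and COX8 on either strand, against 22.2% of genes, and a Hap1 motif was found in 0 of the 7, against 0.134%. With 500 bases the same genes held each motif, and the shares over all genes were 62.5% for CCAAT, 8.58% for the longer form and 34.1% for AGGGG. A match of letters is a description and not a bound site.

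**Figure D1:**
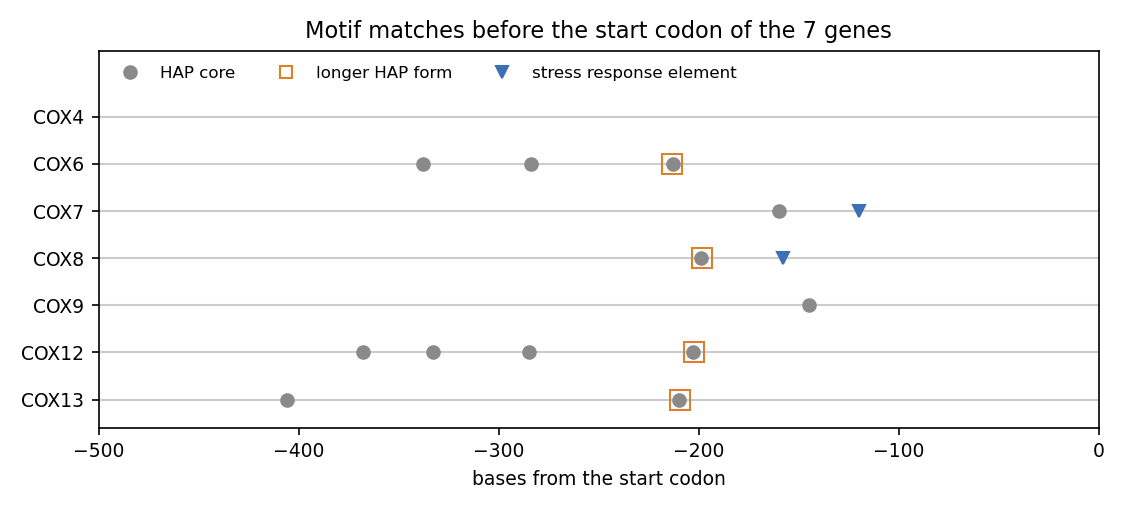
Positions of motif matches in the 500 bases before the start codon of each gene, on either strand (x axis, bases from the start codon). Filled circles are CCAAT, open squares the longer form that contains it, and triangles the stress response element. The 4 squares lie within a narrow band, at boxes that begin 201 to 215 bases before the start codon, and COX4 has no mark.

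The mutant held slightly more of 4 of the 7 transcripts. COX4, COX6, COX7 and COX13 rose by 1.13-fold to 1.25-fold, and COX8, COX9 and COX12 were not called different, at 1.00-fold to 1.02-fold. None was lower. Of all 6139 genes tested, 26.4% were called higher and 24.3% lower (1622 and 1494 genes, or 2217 and 866 with library totals as the only scaling), and 67.7% of the called genes differed by less than 1.5-fold, as did all 4 oxidase genes called. For the same 4 genes both mutant libraries lay above both wild-type libraries, which held for 38.1% of all tested genes, and for 0 of the 7 they lay below, which held for 36.0%. The median log2 fold change of the 7 was 0.18, beside 0.0097 over all genes tested. Outside chromosome X, where all 7 lie, 1284 of 5766 tested genes were called higher (22.3%) and 1492 lower, with a median of -0.013.

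**Figure D2:**
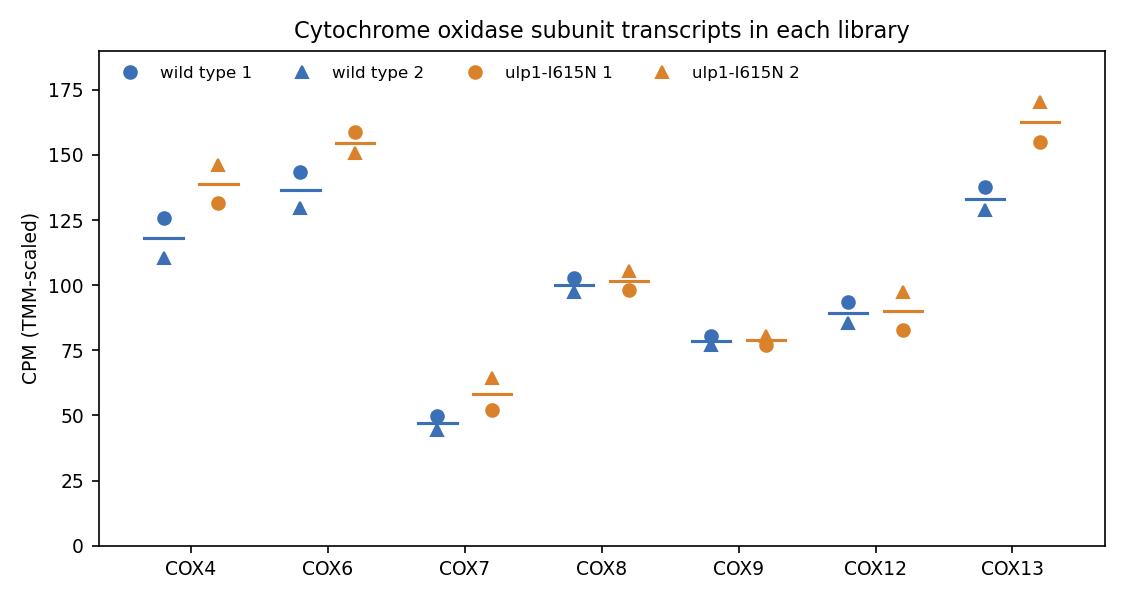
Level of each transcript in each library (y axis, CPM after TMM scaling, from 0), with wild type in blue and ulp1-I615N in orange, circles for replicate 1, triangles for replicate 2 and a bar at the mean of 2 libraries. The orange points of COX4, COX6, COX7 and COX13 lie above the blue ones, and those of COX8, COX9 and COX12 overlap them.

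Cox4 and Cox6 are the subunits on the matrix side of the enzyme, and Cox4 binds zinc. COX4 (YGL187C, chromosome VII, 149704 to 150171 of sacCer3, minus strand, a single exon) stood at 126 and 110 CPM in the wild-type libraries and at 132 and 146 CPM in the mutant libraries. Its mutant libraries were the higher ones, by a margin that was small against wild type replicate 1. The means were 118 ± 11.0 and 139 ± 10.2 CPM (SD, n = 2 each), and the log2 fold change was 0.24 ± 0.08 (SE, edgeR adjusted p = 0.0163). The call ended without wild type replicate 2, at 0.14 (adjusted p = 0.112), without mutant replicate 2, at 0.16 (adjusted p = 0.159), and with DESeq2 (0.22, adjusted p = 0.0519).

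COX6 (YHR051W, chromosome VIII, 209705 to 210151, plus strand, a single exon) stood at 143 and 130 CPM in wild type and 159 and 151 CPM in the mutant. Its mean CPM in wild type was the highest of the 7 when not scaled by length. The groups did not overlap, and the nearest libraries were wild type replicate 1 and mutant replicate 2. Its means of 137 ± 9.55 and 155 ± 5.58 CPM (SD, n = 2 each) gave the smallest called change, 0.18 ± 0.07 (SE, edgeR adjusted p = 0.0333). It was no longer called without wild type replicate 2 (0.11, adjusted p = 0.240), without mutant replicate 1 (0.14, adjusted p = 0.181) or with DESeq2 (0.17, adjusted p = 0.120).

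Cox7, Cox8 and Cox9 are small subunits, each with a single membrane-spanning helix. COX7 (YMR256C, chromosome XIII, 778945 to 779127, minus strand, a single exon) stood at 49.9 and 44.6 CPM in wild type and 52.1 and 64.5 CPM in the mutant. These were the lowest CPM values of the 7 when not scaled by length. Mutant replicate 1 lay close to the wild-type libraries and mutant replicate 2 well above them. The means were 47.2 ± 3.80 and 58.3 ± 8.82 CPM (SD, n = 2 each), the largest fold change of the 7 at 0.32 ± 0.10 (SE, edgeR adjusted p = 0.0215). Without mutant replicate 2 the value was 0.14 and was not called (adjusted p = 0.362), and it stayed called without each of the other libraries.

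COX8 (YLR395C, chromosome XII, 909729 to 909965, minus strand, a single exon) stood at 103 and 97.3 CPM in wild type and 98.1 and 105 CPM in the mutant. COX9 (YDL067C, chromosome IV, 334217 to 334396, minus strand, a single exon) was at 80.6 and 76.9 CPM in wild type and 77.2 and 80.6 CPM in the mutant. The groups overlapped for both genes. The log2 fold changes were 0.03 ± 0.07 for COX8 (SE, edgeR adjusted p = 0.763) and 0.0050 ± 0.0692 for COX9 (edgeR adjusted p = 0.960). COX9 changed sign with the RLE scaling (-0.0060), with DESeq2 (-0.0067) and without ribosomal protein genes in the scaling (-0.0093). Both genes changed sign without wild type replicate 2 (-0.013 for COX8 and -0.030 for COX9) and without mutant replicate 2 (-0.029 for each). A p above the threshold does not show that a level was the same in both strains.

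Cox12 and Cox13 lie at the outer side of the enzyme, Cox12 as a soluble protein of the intermembrane space with paired cysteines and Cox13 as a membrane subunit. COX12 (YLR038C, chromosome XII, 224921 to 225172, minus strand, a single exon) stood at 93.5 and 85.4 CPM in wild type, and at 82.8 and 97.2 CPM in the mutant, where its libraries were both the lowest and the highest of the 4. Its log2 fold change was 0.02 ± 0.08 (SE, edgeR adjusted p = 0.878), and it ran from -0.11 without mutant replicate 2 to 0.12 without mutant replicate 1. COX13 (YGL191W, chromosome VII, 144808 to 145197, plus strand, a single exon) stood at 138 and 129 CPM in wild type and 155 and 171 CPM in the mutant. Its groups were well apart. The means of 133 ± 6.29 and 163 ± 11.0 CPM (SD, n = 2 each) gave 0.29 ± 0.07 (SE, edgeR adjusted p = 0.00171). COX13 was called in each of the 13 alternatives tried, at 0.22 to 0.42, with adjusted p from 9.54e-06 to 0.0369.

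**Figure D3:**
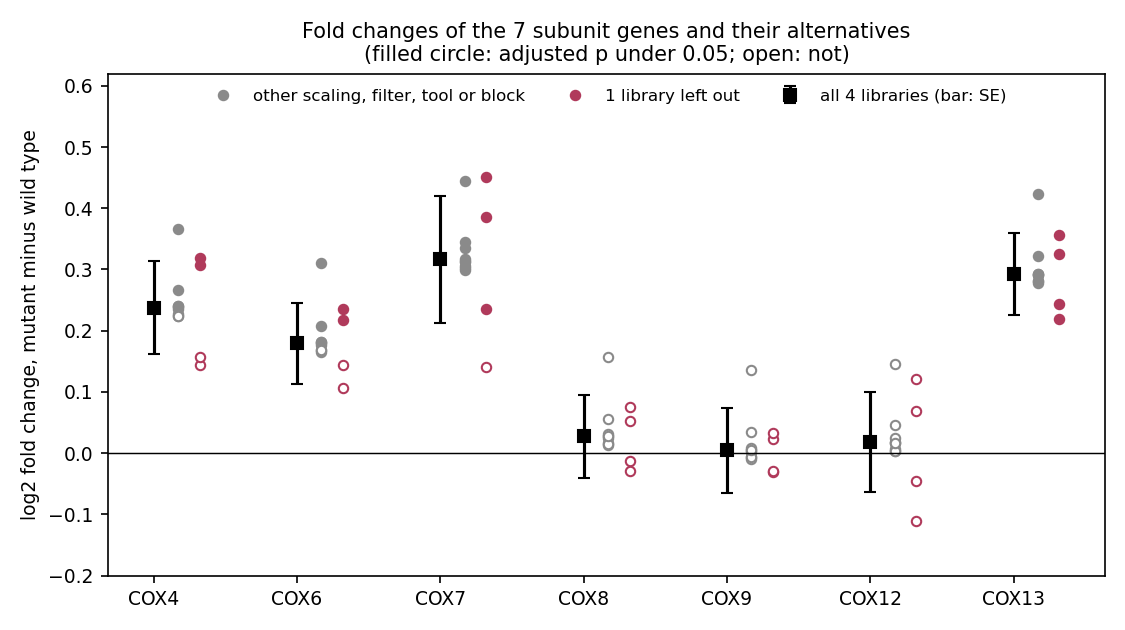
Log2 fold change of mutant over wild type (y axis) for each gene: squares with SE bars use all 4 libraries, grey circles other scalings, filters, tools or the replicate block, and red circles 1 library left out. Filled circles passed an adjusted p of 0.05. The circles of COX13 are all filled, from 0.22 to 0.42, and none of COX8, COX9 or COX12 is filled.

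Within each genotype the replicates differed in a direction that most of the 7 genes shared. It was opposite in wild type and mutant. Wild type replicate 2 was below replicate 1 for 7 of 7 oxidase genes, by 0.07 (COX9) to 0.19 (COX4) on the log2 scale, and for 51.1% of 6137 genes with counts in each library. Mutant replicate 2 was above replicate 1 for 6 of the 7, against 49.6% of those genes, and COX6 was the exception. Wild type replicate 2 was also the lower one for 8 of 9 bc1 complex genes, 3 of 4 succinate dehydrogenase genes and 10 of 14 ATP synthase genes. Mutant replicate 2 was the higher one for 7 of 9, 4 of 4 and 12 of 14 of them. For the genes of cytochrome c and its haem lyases these counts were 4 of 4 in wild type and 2 of 4 in the mutant. HAP4, the gene of the glucose-responsive subunit of the HAP complex, was at 64.6 and 47.8 CPM in these wild-type libraries. Its part in the spread of the oxidase genes was not tested. Summed, the 7 genes made up 0.0714% and 0.0632% of all counts in the wild-type pair, and 0.0799% and 0.0845% in the mutant pair. These shares are of unscaled totals. After TMM scaling the sums were 734 and 673 CPM in wild type and 755 and 815 CPM in the mutant.

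The proportions among the 7 transcripts were compared within each library, as the log2 ratio of each gene to the geometric mean of the 7, in which the scaling of libraries cancels. In this measure COX13 went from 0.47 and 0.50 in the wild-type libraries to 0.62 and 0.63 in the mutant libraries, and COX7 went from -0.99 and -1.03 to -0.95 and -0.77. COX4 went from 0.34 and 0.28 to 0.39 and 0.40. Because the shifts of the 7 genes sum to 0 by construction, a rise of some forces a fall of others. COX8, COX9 and COX12, which hardly moved in CPM, moved down in this measure: COX8 went from 0.05 and 0.09 to -0.04 and -0.07, COX9 from -0.30 and -0.25 to -0.39 and -0.45, and COX12 from -0.09 in both to -0.28 and -0.18. The groups did not overlap for these 6 genes, which is no result about them. In CPM 38.1% of all tested genes lay above and 36.0% below without overlap, and no such share was computed for this ratio. COX6 overlapped, at 0.53 and 0.51 against 0.65 and 0.45. These shifts, of 0.15 or less in size, were not tested. An exact two-sided permutation test of 2 libraries against 2 cannot give a p below 0.333.

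**Figure D4:**
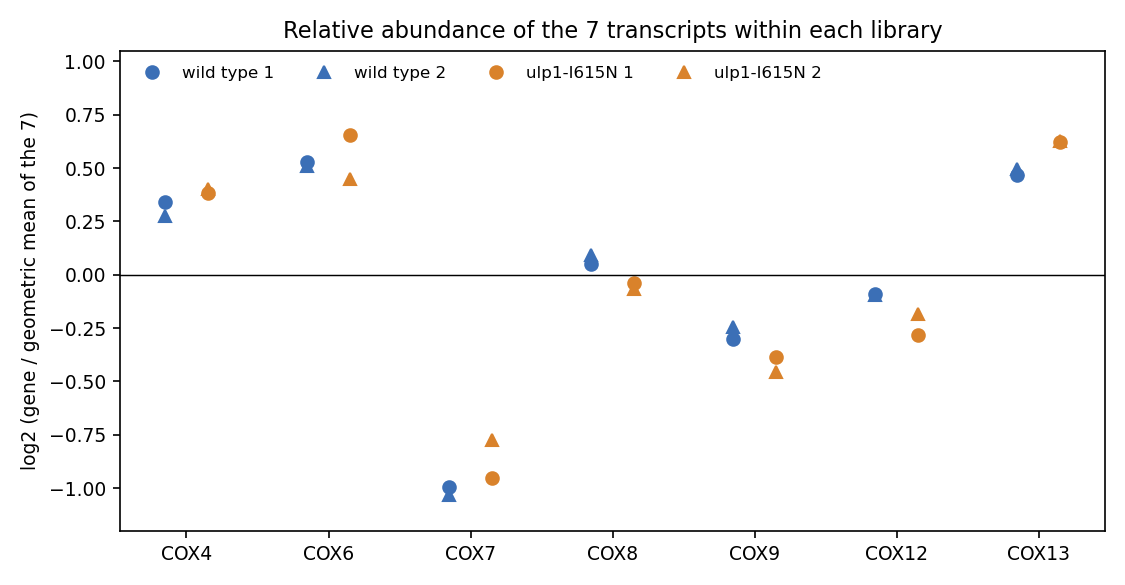
Log2 ratio of each transcript to the geometric mean of the 7 in the same library (y axis), with colours and shapes as in the plot of levels by library. The mutant points lie above the wild-type points for COX4, COX7 and COX13 and below them for COX8, COX9 and COX12.

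Levels of different genes were set side by side per kilobase of coding length. In wild type the order was COX9 at 438 ± 14.7, COX8 at 422 ± 16.7, COX12 at 355 ± 22.6, COX13 at 342 ± 16.1, COX6 at 306 ± 21.4, COX7 at 258 ± 20.8 and COX4 at 253 ± 23.5 CPM per kb (SD, n = 2). Neighbours in that order whose libraries overlapped were COX9 and COX8, COX12 and COX13, and COX7 and COX4. In the mutant COX13 passed COX12, at 417 ± 28.1 against 357 ± 40.4 CPM per kb, and the other places were the same. The highest and the lowest level differed 1.73-fold in wild type and 1.48-fold in the mutant. A fragment counts by overlap with a coding sequence of 180 to 468 bases, the shortest being COX9, so a level per length depends on fragment length, which the table does not hold.

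Another subunit of nuclear origin comes from a pair of isoform genes. COX5A, the form used in aerobic growth, was at 201 ± 12.1 and 199 ± 9.45 CPM in wild type and mutant (SD, n = 2), and was not called (log2 fold change -0.0070, SE 0.0647, edgeR adjusted p = 0.941). The hypoxic form COX5B was at 8.32 and 9.03 CPM in wild type and 23.9 and 20.9 CPM in the mutant, a rise of 1.36 ± 0.14 on the log2 scale (SE, edgeR adjusted p = 6.61e-07). Per kilobase the share of COX5B in the pair was 3.88% and 4.55% for wild type, against mutant shares of 11.2% and 9.33%. The mitochondrial genes COX1, COX2 and COX3 had 0 counts in each library, as did all 55 mitochondrial features, so the core cannot be set beside the 7.

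Genes that regulate and assemble the enzyme were called in both directions. Of the 5 HAP genes, HAP4 was at 97.5 and 104 CPM in the mutant, above its wild-type values given earlier (log2 fold change 0.85, SE 0.13, edgeR adjusted p = 0.000631). HAP1, the gene of a haem-responsive activator, was at 125 and 137 CPM in wild type and 90.3 and 88.3 CPM in the mutant (log2 fold change -0.55, SE 0.07, edgeR adjusted p = 4.00e-06). HAP2, HAP3 and HAP5 were not called, at 0.16, 0.01 and 0.21. Of 9 tested genes for copper delivery and related small cysteine proteins, 3 were higher and 0 lower (33.3% higher, beside 26.4% of all tested genes, and a median of 0.22). They were PET191 at 1.21, on chromosome X, and the copper chaperone genes SCO2 at 0.45 and SCO1 at 0.38. COX17, the gene of the copper donor to Sco1, was at 0.18 and not called. COA6 was not tested because its counts were too low.

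Of 18 other assembly and membrane insertion factors 10 were higher and 1 lower (55.6% higher, beside 26.4% of all tested genes). Their median was 0.29, or 0.24 over the 16 away from chromosome X. COA3 and COX16, both on chromosome X, were at 1.11 and 0.97, and COX20, the chaperone of newly made Cox2, was at 0.83 and overlaps another feature. OXA1, the gene of the general insertase of the inner membrane, fell by 0.42. Both genes of haem A synthesis, COX10 and COX15, were not called, COX10 at 0.09 having the smaller p. Of 6 translational activators of the mitochondrial messages, PET54 and MSS51 rose by 0.33 and 0.22, PET309 fell by 0.23 and the other 3 were not called, which again made 33.3% higher beside 26.4% of all tested genes. Among 3 proteins bound to the oxidase in supercomplexes, RCF2 fell by 0.30, and RCF1 and COX26 were not called.

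The other respiratory complexes were counted in the same way, to be read beside 26.4% higher and 24.3% lower among all tested genes. Of 9 bc1 complex genes 8 were higher and 0 lower (median 0.45), led by QCR8 at 0.97, on chromosome X, QCR10 at 0.54 and CYT1, the gene of cytochrome c1, at 0.50. All 4 succinate dehydrogenase genes were higher (median 0.77), among them SDH2 at 0.87, SDH1 at 0.86 and SDH4 at 0.67. Of 14 ATP synthase genes 11 were higher and 0 lower (median 0.28), with ATP2 on chromosome X at 0.94, ATP15 at 0.49 and ATP14, which overlaps another feature, at 0.35. All 4 genes of cytochrome c and its haem lyases were higher, CYC7 at 2.13, CYC1 on chromosome X at 0.97 and CYC3 at 0.34. For the 7 oxidase genes the count was 4 of 7 and the median 0.18. Whether these counts and medians differ between the groups was not tested.

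**Figure D5:**
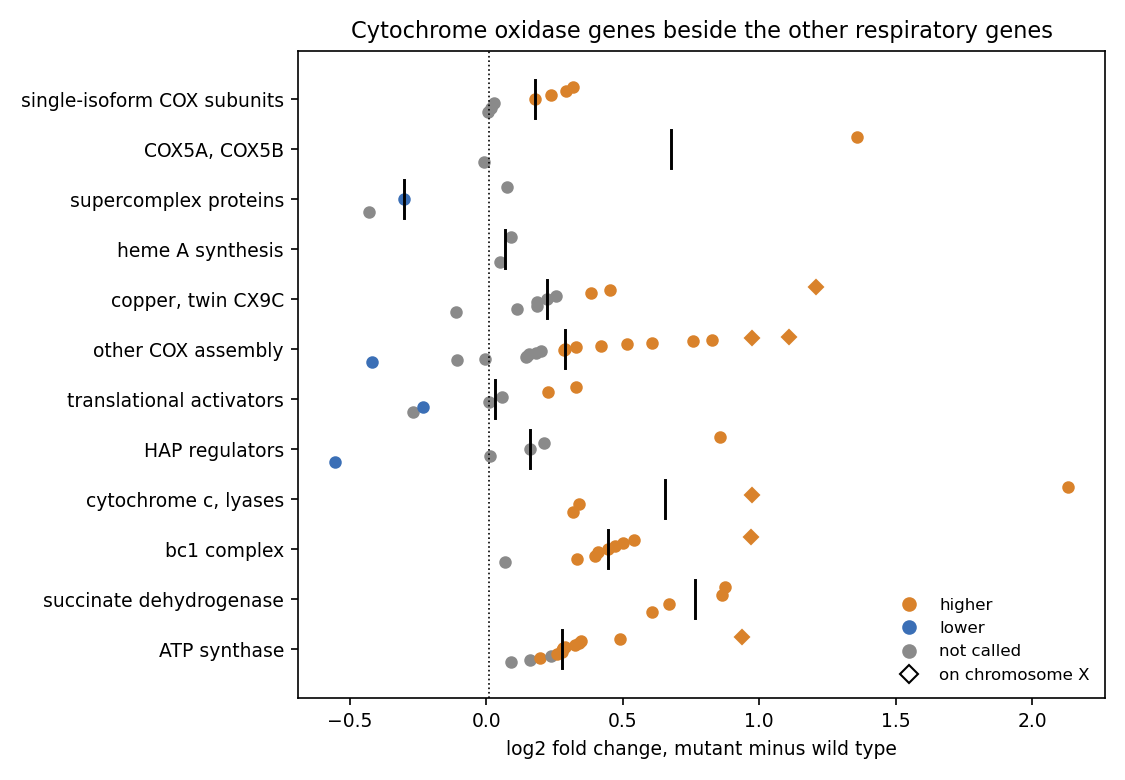
Log2 fold change of mutant over wild type (x axis) for each tested gene of the oxidase and of related groups, with orange for genes called higher, blue for lower and grey for not called, diamonds for chromosome X, a black bar at each group's median and a dotted line at the median of all tested genes. The 7 single-isoform genes lie between 0.0050 and 0.32, and the 4 succinate dehydrogenase genes lie between 0.61 and 0.87.

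The oxidase genes lie apart from each other in the genome, except that COX13 and COX4 are separated by 4506 bases of chromosome VII. The nearest tested gene on each side of each member gave 14 neighbours, of which 3 were higher, 4 lower and 7 not called (median 0.05). These counts lay near the shares of all tested genes, 26.4% higher and 24.3% lower, and are no result about these places. Next to the rising genes, TPN1, the gene of a vitamin B6 transporter, lies before COX4 and fell by 0.49 (edgeR adjusted p = 5.34e-06), CIC1, a ribosome assembly gene after COX6, fell by 0.69, and IME4 and CDC55 on the sides of COX13 fell by 0.25 and 0.19. PET111, which activates translation of the COX2 message, lies before COX7 and was not called, at 0.06, and GFD1 after COX7 was at 0.0069. YGL188C after COX4 and YHR050W-A before COX6 were not called, at 0.34 and 0.40 with few counts. Next to the genes that were not called, IDP1, the mitochondrial isocitrate dehydrogenase gene that shares its 438-base upstream region with COX9, rose by 0.17 (edgeR adjusted p = 0.0212). CST9 after COX8 rose by 0.30 and PAU23 after COX12 by 0.78, while VPS33, CBS1 and RIC1 were not called, at 0.04, 0.04 and 0.11.

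The average pattern of the 7 genes over the 4 libraries was compared with that of 5725 other genes, those with at least 50 counts per library on average. The 5 genes nearest to it in centred log2 CPM (Euclidean distance over 4 libraries) were DMA2, a ubiquitin ligase gene, at 0.0195, CDC20, an activator of the anaphase-promoting complex, at 0.0275, COQ1, a gene of ubiquinone synthesis, at 0.0285, the Golgi SNARE gene SFT1 at 0.0373 and TFB6 at 0.0373. None of these 5 was called different, with log2 fold changes of 0.12 (SFT1) to 0.19 (TFB6). The members themselves lay farther from their own average, from 0.0987 for COX4, with 123 genes nearer, to 0.198 for COX7, with 946 genes nearer.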

How the data were processed

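The authors deposited 1 table of raw fragment counts per gene, made with featureCounts 2.0.0 on read pairs per the file headers, with no strand, multi-mapping or overlap option. Fragments on either strand were therefore counted alike, and those in several places or genes were left out. The build sacCer3, the aligner HISAT2 (2.1.0) and the Subread package (2.0.0) are named per the submitters' processing notes, with the annotation version not given in the sources used here. Columns were tied to samples by library name and groups taken from sample titles. Replicates differed by more than counting noise (chi-square per degree of freedom 9.72 for wild type and 8.83 for the mutant).

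Counts were tested across all genes with edgeR 4.0.16 (R 4.3.3; TMM scaling, default filter with a minimum count of 10 and total of 15, robust quasi-likelihood fit, mutant against wild type with no replicate block), with Benjamini-Hochberg adjustment over 6139 genes and a threshold of 0.05. Standard errors came from the F statistics. CPM used TMM-scaled totals. A count of 0 allows up to 3 counts, which over the unscaled total is 0.227 CPM in the shallowest library and 0.112 in the deepest, for counting error only. Alternatives were other scalings (RLE, totals only, without chromosome X genes, without ribosomal protein genes), other filters, DESeq2 1.42.0, limma-voom (limma 3.58.1), the replicate block and each library left out.

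The members and lists were chosen with earlier results of these data known. Named are the members, ULP1, HAP1 to HAP5, COX1 to COX3, COX5A, COX5B, up to 3 called genes of each other list by size of change (or the smallest p), the neighbours, and the 5 genes of nearest pattern. The mating type genes, ADE2, ADE3 and LYS1 are named as checks of the labels. OXA1, COX17, COA6, RCF1, COX26 and COX15 were named after their values were seen. Symbols came from RefSeq R64 by locus tag (6048 of 7126 features matched).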

Additional observations from a re-analysis of the deposited data

How the results depend on the processing

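COX13 kept its call under the 13 alternatives, and COX8, COX9 and COX12 were called under none of them. With DESeq2, 2 of the 7 genes were called higher, since COX4 (0.22) and COX6 (0.17) lost their calls. Of all genes, 1307 were then called higher and 1308 lower. COX9 changed sign with RLE scaling (-0.0060), with DESeq2 (-0.0067) and without ribosomal protein genes (-0.0093), each far within its error. With library totals only, the median of all genes moved up to 0.14 and that of the 7 to 0.31, and the split of all calls became 2217 higher and 866 lower, from 1622 and 1494. COX4, COX6, COX7 and COX13 were then at 0.37, 0.31, 0.44 and 0.42, and COX8, COX9 and COX12 at 0.16, 0.14 and 0.15, not called. Leaving out each library in turn assumes that the single one remaining in its group varies like the other group. Fewer members were then called without wild type replicate 2 and without either mutant replicate, as given above for each gene. Fewer of all genes were called higher whichever library was left out, and no member lost its call without wild type replicate 1. Values ran from 0.14 to 0.32 for COX4, 0.11 to 0.24 for COX6, 0.14 to 0.45 for COX7, -0.029 to 0.075 for COX8, -0.030 to 0.033 for COX9 and -0.11 to 0.12 for COX12. The labels do not say what a replicate number shares, and deviations of same-numbered libraries correlated at 0.134 over 5732 genes in only 2 pairs. The replicate block called the same number of members, 4, and 1776 genes higher and 1657 lower. The causes were not tested. At 729 to 4722 counts per member and 2 libraries a group, SEs of 0.07 to 0.10 limit what changes of this size can show.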
